A study of Mus musculus with 23 samples.

Results

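The Notch pathway of blood vessel lining cells was followed through 10 genes: the ligands Dll4, Jag1 and Jag2, the receptors Notch1 and Notch4, the transcriptional repressors Hes1, Hey1 and Hey2, the feedback inhibitor Nrarp, and Efnb2, which encodes the arterial surface protein ephrin-B2. They were taken by gene symbol from the annotation of the array platform. Each had 1 probe set, so the 10 genes are 10 of the 24704 measured. Expression was measured on 23 Affymetrix arrays in mouse aortic endothelial cells (MAOEC) that had been kept for 48 h in medium in which 10% plasma stood in place of fetal calf serum. The plasma came from C57BL/6J mice of 4 genotypes. It was taken from ApoE-KO mice (5 arrays), ApoE-Stab1-KO mice (6 arrays), ApoE-Stab2-KO mice (6 arrays) and Wildtype mice (6 arrays). ApoE-KO animals lack apolipoprotein E, which clears lipoprotein remnants from blood. The double knockouts lack in addition Stabilin-1 or Stabilin-2, scavenger receptors of sinusoidal endothelium. Genotype therefore refers to the mice that gave plasma, and the labels name no allele of the cells. All 3 knockout donor groups had eaten a Western diet for 8 weeks. What the Wildtype mice ate is not stated in the labels, and genotype and diet cannot be told apart in any comparison with Wildtype plasma. The labels do not say whether arrays of a group came from separate cultures or separate donors, and p-values then measure only the spread between these arrays, which may be technical.

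Notch signalling passes between touching cells. A ligand of the Delta or Jagged type on one cell pulls on a Notch receptor of its neighbour, the receptor is cut first outside and then within the membrane, and its freed inner part binds the DNA-binding protein RBPJ in the nucleus and switches on genes such as those of the HES and HEY families. In endothelium, Dll4 is the ligand best known for arterial identity and for restraint of sprouting: a tip cell that responds to VEGF carries Dll4 and thereby holds its neighbours back from becoming tip cells.

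Levels are log2 values as deposited, in which a difference of 1 is a doubling. A difference is given as the first group minus the second, with its standard error. "Called" means an adjusted p under 0.05 by limma's moderated test, with Benjamini-Hochberg adjustment over all 24704 genes. Each adjusted p below is of that kind. The lists of related genes used below, like the 10 genes, were chosen with earlier results of these data known.

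The start of each gene is a stretch to which RBPJ, HES or HEY proteins could bind. Sites farther from the start were not searched. The 3 stretches shown were picked because they differ in the motifs they hold. They belong to Dll4 and Efnb2, the genes that were called below, and to Hey2, a classical Notch target. Each stretch runs 5′ to 3′ on the gene's own strand, from 250 bases before the start of transcription to 20 after, as given by RefSeq on GRCm38.p6. Capitals mark any match on either strand to CACGTG (an E-box bound by HES and HEY proteins), CACGCG (the HES class C site), TGGGAA or its longer form GTGGGAA (the core bound by RBPJ), or CCGGAA (an ETS site). The Dll4 stretch is chr2:119325534-119325803 on the plus strand, the Efnb2 stretch chr8:8661223-8661492 on the minus strand, and the Hey2 stretch chr10:30842764-30843033 on the minus strand.
Dll4: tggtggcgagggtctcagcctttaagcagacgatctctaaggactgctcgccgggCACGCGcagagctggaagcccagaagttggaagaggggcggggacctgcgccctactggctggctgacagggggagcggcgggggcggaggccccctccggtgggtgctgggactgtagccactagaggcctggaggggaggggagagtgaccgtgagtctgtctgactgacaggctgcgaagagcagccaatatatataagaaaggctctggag
Efnb2: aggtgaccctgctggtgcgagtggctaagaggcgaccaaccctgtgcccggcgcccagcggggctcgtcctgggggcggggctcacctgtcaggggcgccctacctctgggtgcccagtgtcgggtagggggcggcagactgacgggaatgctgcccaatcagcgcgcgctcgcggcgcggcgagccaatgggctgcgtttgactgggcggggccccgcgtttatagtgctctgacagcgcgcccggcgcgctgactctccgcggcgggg
Hey2: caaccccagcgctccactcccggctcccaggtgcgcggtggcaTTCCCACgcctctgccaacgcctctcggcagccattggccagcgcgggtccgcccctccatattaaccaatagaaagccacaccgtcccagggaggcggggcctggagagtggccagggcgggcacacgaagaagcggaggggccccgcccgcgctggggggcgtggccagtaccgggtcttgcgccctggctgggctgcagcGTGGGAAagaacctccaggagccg

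The Dll4 stretch held 1 CACGCG, at -195 to -190, and no other motif of the set. Among 32851 stretches of the same length, 8.33% held CACGCG. Hey2 held GTGGGAA at both ends of its stretch, at -207 to -201 on the opposite strand and at -4 to 3 on its own strand; 5.75% of all stretches held that motif at least once, and 23.1% held the shorter TGGGAA that overlaps it. The Efnb2 stretch held none of the 5 motifs. Of the other members, Jag1 held CACGCG at 2 places and Nrarp held CACGTG at -108 to -103, a motif of 6.57% of stretches. Jag2, Notch1 and Notch4 held none, and CCGGAA, present in 13.7% of stretches, occurred in no member. A match or its absence describes these letters alone. The Dll4 and Efnb2 stretches had 14 and 31 CpG pairs and a GC content of 63.7% and 72.6%, against medians of 6 pairs and 52.6% over all stretches. Of all stretches, 67.5% had fewer CpG pairs than Dll4 and 92.9% fewer than Efnb2. Notch4 had 4 pairs, and the other members with a sequence had from 18 (Notch1 and Nrarp) to 58 (Jag2). Sequences for 8 of the 10 genes were used; Hes1 and Hey1 were not analysed here. Dll4, Jag1, Notch1 and Nrarp all lie on chromosome 2, which carries 8.67% of the stretches.

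Dll4 fell with every knockout plasma. Cells in Wildtype plasma had levels from 8.85 to 9.05 with a median of 9.02. Cells in ApoE-KO plasma had levels of 8.72, 8.48, 8.34, 8.61 and 8.46. With ApoE-Stab1-KO plasma the lowest level was 8.17, the median 8.43 and the highest 8.66, and with ApoE-Stab2-KO plasma the levels ran from 8.43 to 8.69 with a median of 8.59. All 17 arrays with knockout plasma lay below all 6 Wildtype arrays, which held for 0.0688% of all genes. Taken singly, 0.891% of genes had every ApoE-KO array below every Wildtype array, 0.385% every ApoE-Stab1-KO array and 0.514% every ApoE-Stab2-KO array. The group means were 8.99 ± 0.08 (SD, n = 6) with Wildtype, 8.52 ± 0.14 (SD, n = 5) with ApoE-KO, 8.42 ± 0.17 (SD, n = 6) with ApoE-Stab1-KO and 8.58 ± 0.09 (SD, n = 6) with ApoE-Stab2-KO plasma.

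The difference of Dll4 from Wildtype plasma was -0.46 ± 0.07 with ApoE-KO plasma, 0.725 times the Wildtype level (95% interval of the log2 difference -0.62 to -0.31, adjusted p = 0.00257). It was -0.56 ± 0.07 with ApoE-Stab1-KO plasma, 0.676 times the Wildtype level (-0.71 to -0.42, adjusted p = 0.000421). With ApoE-Stab2-KO plasma it was -0.40 ± 0.07, 0.757 times the Wildtype level (-0.55 to -0.25, adjusted p = 0.0119). By the size of its p-value Dll4 ranked 3 of 24704 genes in the ApoE-Stab1-KO comparison, 20 in the ApoE-Stab2-KO comparison and 24 in the ApoE-KO comparison. The 3 comparisons share the Wildtype arrays. Among the 12 fits that left out 1 array of the groups compared, the ApoE-Stab2-KO call was kept in 11. It was lost without ApoE-Stab2-KO replicate 3, the lowest of its group, where the difference was -0.37 and the adjusted p 0.0505. For the mean of the 3 knockout plasmas minus Wildtype the Dll4 difference was -0.48 ± 0.06 (0.719 times, adjusted p = 8.95e-05), and in the moderated F-test over the 4 groups its adjusted p was 0.000567.

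**Figure D1:**
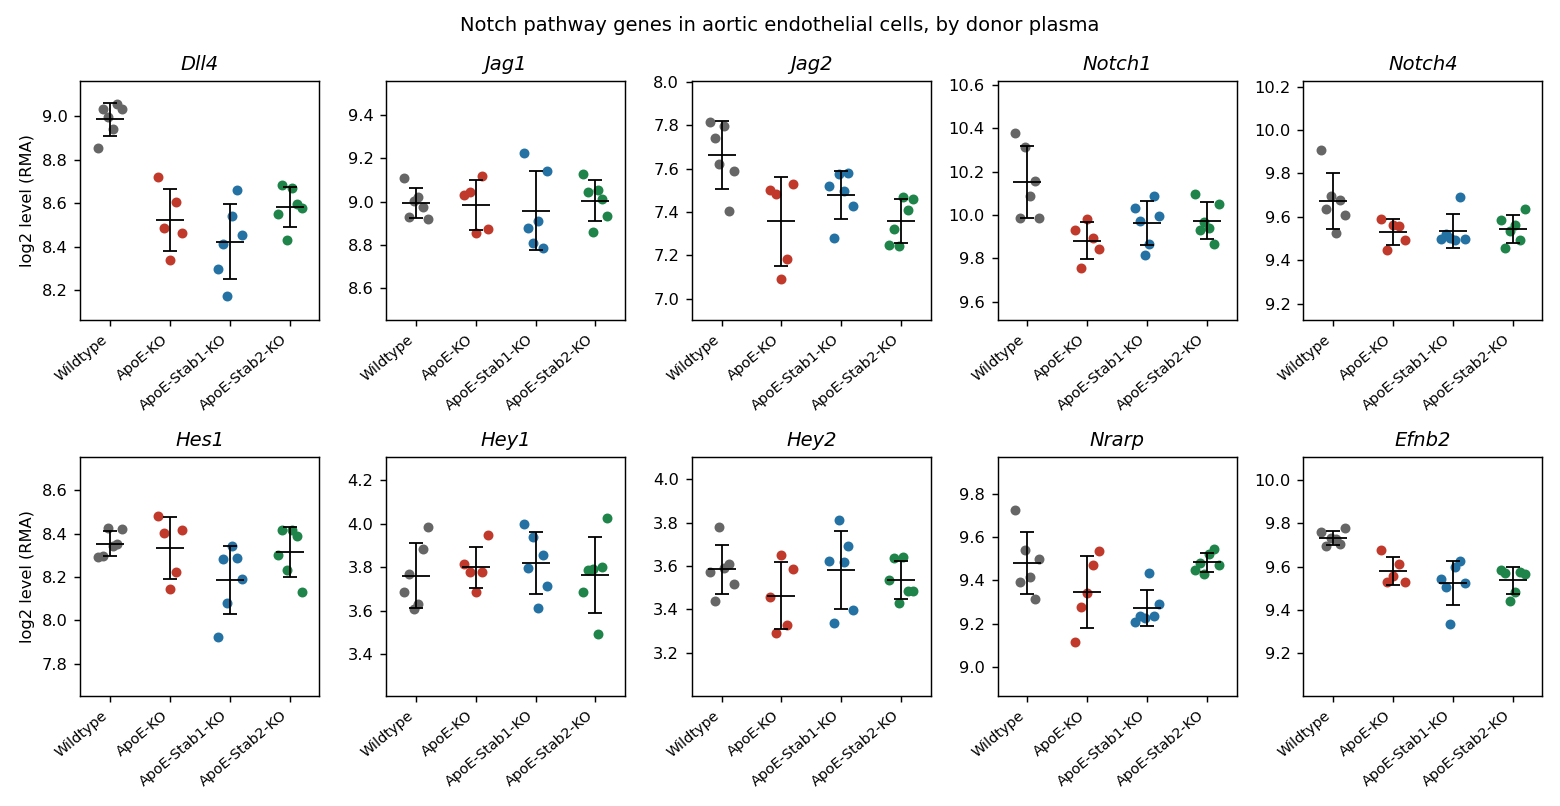
Level of each of the 10 genes on every array, as deposited log2 values (vertical axis, the same span of log2 units in each panel), by plasma group (horizontal axis); each point is 1 array, and the long bar and whiskers are the group mean and SD. For Dll4 the Wildtype arrays lie between 8.85 and 9.05 and every knockout plasma array lies at 8.72 or lower.

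ApoE-Stab1-KO replicate 1 stood apart from the other arrays on the first principal component and had the lowest median correlation with the other arrays (0.994). Without it the ApoE-Stab1-KO difference of Dll4 was -0.54 (adjusted p = 0.0013). The endothelial markers were present throughout: all 12 of the list lay above the median gene, Cdh5 and Pecam1 among them. Their mean level per array ranged from 11.16 to 11.22 with Wildtype plasma, 10.99 to 11.18 with ApoE-KO, 11.02 to 11.20 with ApoE-Stab1-KO and 11.14 to 11.23 with ApoE-Stab2-KO plasma. Cldn5 and Egfl7 of this list were called lower with ApoE-KO plasma and Egfl7 with ApoE-Stab1-KO plasma, and Egfl7 and Emcn (-0.13 ± 0.03, adjusted p = 0.0452) for the mean of the 3 knockout plasmas; the part of endothelial marker levels in the Dll4 result was not tested. In such bulk RNA, fewer cells that express a gene and less RNA of it per cell cannot be told apart. No marker of smooth muscle (8 measured), fibroblasts (8), macrophages and leukocytes (7), lymphatic endothelium (5) or red cells and platelets (4) was called in any comparison with Wildtype plasma. Of those lists, 3, 2, 1, 3 and 1 genes respectively lay above the median gene. With ApoE-Stab1-KO plasma, 0 of the 8 fibroblast markers had a negative difference from Wildtype, with a median of 0.11 against 0.00 for all genes. Their mean level per array ranged from 4.13 to 4.27 with that plasma, 4.02 to 4.13 with Wildtype, 4.08 to 4.17 with ApoE-KO and 4.04 to 4.18 with ApoE-Stab2-KO plasma. Of the 8 smooth muscle markers 6, 7 and 7 had a negative difference with ApoE-KO, ApoE-Stab1-KO and with ApoE-Stab2-KO plasma (medians -0.06, -0.04 and -0.07). Their mean level ranged from 4.91 to 4.98 with Wildtype plasma and from 4.82 to 4.93 over the knockout plasmas. The part of either list in the Dll4 result was not tested. Lymphatic Lyve1 stood at 12.70 with Wildtype plasma, while Prox1, which defines lymphatic endothelium, stood at 3.23, and the leukocyte marker Ptprc at 3.03. Of the other lymphatic markers, Flt4 had a mean of 9.64 over all arrays, Pdpn 5.02 and Reln 3.37. Cd68 stood at 11.13 with Wildtype, 11.29 with ApoE-KO, 11.10 with ApoE-Stab1-KO and 11.17 with ApoE-Stab2-KO plasma. It was the 1 gene of the macrophage and leukocyte list above the median gene. The part of Cd68 in the Dll4 result was not tested.

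The other ligands did not pass the test. Jag2, a Jagged-type ligand, measured 7.09, 7.18, 7.48, 7.50 and 7.53 with ApoE-KO plasma. It ranged from 7.28 to 7.58 (median 7.51) with ApoE-Stab1-KO plasma, from 7.25 to 7.47 (median 7.36) with ApoE-Stab2-KO plasma and from 7.40 to 7.82 (median 7.68) with Wildtype plasma. Each knockout range overlapped the Wildtype range, since 1 Wildtype array stood at 7.40. The differences from Wildtype were -0.30 ± 0.08 (adjusted p = 0.124) with ApoE-KO, -0.18 ± 0.08 (adjusted p = 0.387) with ApoE-Stab1-KO and -0.30 ± 0.08 (adjusted p = 0.172) with ApoE-Stab2-KO plasma. Jag1, the ligand that can oppose Dll4 in sprouting vessels, ranged from 8.92 to 9.11 with Wildtype plasma and from 8.79 to 9.22 over the knockout plasmas, with differences from Wildtype between -0.03 and 0.01. The 95% interval of the Jag1 difference with ApoE-KO plasma ran from -0.16 to 0.14, which holds neither the Dll4 nor the Jag2 difference of the same comparison.

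The receptors also had lower means in each knockout plasma without a call. Notch1, the main Notch receptor of endothelium, measured 9.93, 9.76, 9.98, 9.90 and 9.85 with ApoE-KO plasma, against 9.99 to 10.38 (median 10.12) with Wildtype plasma. The highest ApoE-KO array thus lay just under the lowest Wildtype array. With ApoE-Stab1-KO and ApoE-Stab2-KO plasma Notch1 ranged from 9.82 to 10.09 and from 9.87 to 10.10, and both ranges overlapped that of Wildtype. The Notch1 differences from Wildtype were -0.27 ± 0.07 (adjusted p = 0.085), -0.19 ± 0.07 (adjusted p = 0.236) and -0.18 ± 0.07 (adjusted p = 0.412), in the order of the single, the Stab1 double and the Stab2 double knockout. Notch4, a receptor found mainly in endothelium, ranged from 9.45 to 9.59, from 9.49 to 9.69 and from 9.46 to 9.63 with the same 3 plasmas and from 9.53 to 9.91 with Wildtype plasma. Its differences lay between -0.14 and -0.13, with adjusted p from 0.296 to 0.487. The Wildtype arrays themselves were spread more widely in both receptors (SD 0.16 for Notch1 and 0.13 for Notch4) than in Dll4 (SD 0.08).

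Among the genes downstream of the receptor, Efnb2 was the only member that was called beside Dll4. Efnb2 encodes the ligand of EphB4 that marks arterial cells, and Notch signalling is known to raise it. With Wildtype plasma it ranged from 9.70 to 9.78 (median 9.73). With ApoE-KO plasma it measured 9.68, 9.53, 9.55, 9.61 and 9.53, with ApoE-Stab1-KO plasma 9.34 to 9.63 (median 9.53) and with ApoE-Stab2-KO plasma 9.44 to 9.58 (median 9.57). As for Dll4, every knockout plasma array lay below every Wildtype array. The difference was -0.21 ± 0.04 with ApoE-Stab1-KO plasma, 0.865 times the Wildtype level (adjusted p = 0.0378). It did not pass with ApoE-KO (-0.15 ± 0.05, adjusted p = 0.178) or ApoE-Stab2-KO plasma (-0.20 ± 0.04, adjusted p = 0.0948). For the mean of the 3 knockout plasmas it was -0.19 ± 0.04 (adjusted p = 0.0141). The ApoE-Stab1-KO call of Efnb2 held in 3 of the 12 fits that left out 1 array of the groups compared, with adjusted p from 0.0242 to 0.0883 over the 12. It was kept without ApoE-Stab1-KO replicate 1 (-0.21, adjusted p = 0.0427), 4 or 5, and lost without ApoE-Stab1-KO replicate 2, 3 or 6 or without any one of the 6 Wildtype arrays.

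Hes1, the repressor that Notch induces in many tissues, measured 8.48, 8.40, 8.15, 8.22 and 8.41 with ApoE-KO plasma. Its range was 7.92 to 8.34 (median 8.24) with ApoE-Stab1-KO, 8.13 to 8.42 (median 8.34) with ApoE-Stab2-KO and 8.29 to 8.42 (median 8.35) with Wildtype plasma. The ranges overlapped, and the ApoE-Stab1-KO difference of -0.17 ± 0.07 was not called (adjusted p = 0.353). Nrarp, which promotes loss of the freed Notch fragment, had the lowest mean with ApoE-Stab1-KO plasma, where it ranged from 9.21 to 9.43 (median 9.24). It ranged from 9.43 to 9.55 with ApoE-Stab2-KO, 9.12 to 9.54 with ApoE-KO and 9.31 to 9.72 with Wildtype plasma. The Nrarp differences from Wildtype were -0.13 ± 0.07 (adjusted p = 0.528), -0.21 ± 0.07 (adjusted p = 0.197) and 0.00 ± 0.07 (adjusted p = 0.998) in the order ApoE-KO, ApoE-Stab1-KO, ApoE-Stab2-KO. Hey1 and Hey2, the HEY repressors of arterial endothelium, stood below the median gene of the arrays (4.30) in every group, with means from 3.76 to 3.82 for Hey1 and from 3.46 to 3.58 for Hey2. The deposited values carry no detection call, and the adjusted p of both genes was 0.661 or higher in each comparison with Wildtype plasma.

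**Figure D2:**
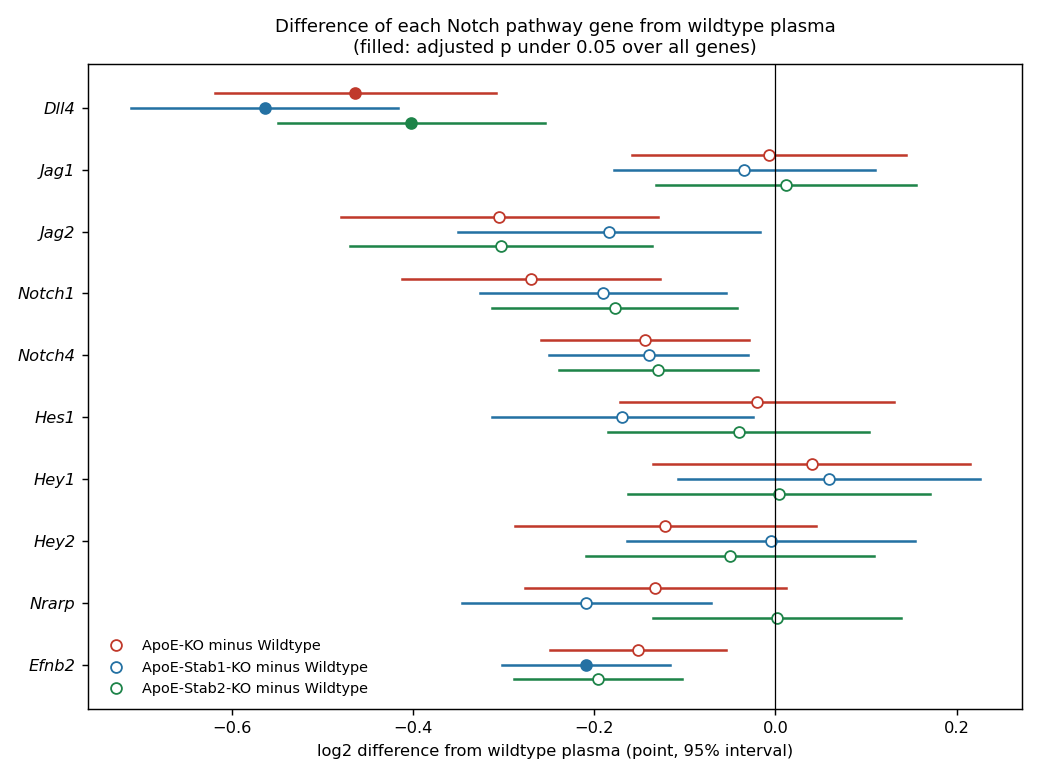
Difference of each gene from Wildtype plasma in log2 units (horizontal axis) for the 3 knockout plasmas; points are fitted differences, lines their 95% intervals, and filled points have an adjusted p under 0.05 over all genes. Dll4 is filled in all 3 comparisons (-0.46, -0.56 and -0.40) and Efnb2 with ApoE-Stab1-KO plasma (-0.21).

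Counted over the 10 genes, 1 (Dll4) was called lower and 0 higher with ApoE-KO plasma, where 0.19% of all genes were called lower and 0.34% higher. With ApoE-Stab1-KO plasma 2 (Dll4 and Efnb2) were called lower and 0 higher, against 0.19% and 0.174% of all genes. With ApoE-Stab2-KO plasma 1 (Dll4) was called lower and 0 higher, against 0.0648% and 0.113%. For the mean of the 3 knockout plasmas 2 were called lower and 0 higher, against 0.291% and 0.486%. The F-test called 1 of the 10, against 0.546% of all genes. At an unadjusted p under 0.05, 5 of the 10 passed with ApoE-KO plasma (10.5% of all genes), 7 with ApoE-Stab1-KO plasma (11.3%), 5 with ApoE-Stab2-KO plasma (8.49%) and 6 for the mean of the 3 (10.9%). The arrays did not overlap, with the knockout plasma lower, in 3 members with ApoE-KO plasma (Dll4, Notch1, Efnb2; 0.891% of all genes), 2 with ApoE-Stab1-KO plasma (0.385%) and 2 with ApoE-Stab2-KO plasma (0.514%). The sign of the difference was negative in 9, 9 and 7 of the 10, with medians of -0.14, -0.18 and -0.09, while the median of all genes was 0.00 in each. These 3 counts share the Wildtype arrays.

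Comparisons between knockout plasmas ask what the further loss of Stabilin-1 or Stabilin-2 in the donor adds, and no member was called in them. For ApoE-Stab1-KO minus ApoE-KO, 0 of the 10 passed limma's test, also before adjustment at 0.05, a bar that 5.57% of all genes passed. In this comparison 0.00405% of all genes were called lower and 0% higher. The Dll4 difference was -0.10 ± 0.07 (95% interval -0.26 to 0.05, adjusted p = 0.964). When ApoE-KO was subtracted from ApoE-Stab2-KO, 0 of the 10 passed, again also before adjustment (8.36% of all genes at an unadjusted p under 0.05), where 0.0121% were called lower and 0.0121% higher. Here the Dll4 difference was 0.06 ± 0.07 (-0.09 to 0.22, adjusted p = 0.872). Equal Dll4 levels are not shown by these intervals, which reach from -0.26 to 0.22 over both comparisons.

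The double knockouts were also set against each other. For ApoE-Stab2-KO minus ApoE-Stab1-KO, 0 of the 10 were called, against 0.0121% of all genes called lower and 0.0364% higher. At an unadjusted p under 0.05, 2 passed, Nrarp and Dll4, where 11% of all genes did. Nrarp was higher by 0.21 ± 0.07 with ApoE-Stab2-KO plasma (adjusted p = 0.211), and its arrays overlapped through ApoE-Stab1-KO replicate 4 alone. Dll4 differed by 0.16 ± 0.07 (95% interval 0.01 to 0.31, adjusted p = 0.41), with overlapping ranges. The order of the Dll4 means was Wildtype, ApoE-Stab2-KO, ApoE-KO and ApoE-Stab1-KO from high to low; the step from Wildtype to the next group exceeded the spread and was called, and the steps between neighbours among the knockout plasmas were not.

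The rest of the pathway was read from 11 lists, of which 91 distinct genes were analysed. Over these 91 genes, members included, 1 was called higher and 4 lower with ApoE-KO plasma, 2 higher and 6 lower with ApoE-Stab1-KO, and 1 higher and 2 lower with ApoE-Stab2-KO plasma. The shares of all genes called higher and lower in these comparisons were 0.34% and 0.19%, 0.174% and 0.19%, and 0.113% and 0.0648%. The median difference of the 91 genes was -0.04 in each, against 0.00 for all genes. Of the 4 receptors none was called. Among 7 ligands Dll4 alone was called, and Dll1 differed from Wildtype by 0.03, 0.08 and 0.04 in the order ApoE-KO, ApoE-Stab1-KO, ApoE-Stab2-KO, which is the order of all triplets below.

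Calls beyond the 10 genes are given list by list. Mfng, manic fringe, a glycosyltransferase that adds sugars to Notch and alters which ligands it answers to, fell by 0.26 ± 0.05 with ApoE-KO plasma (adjusted p = 0.00654) and by 0.27 ± 0.04 with ApoE-Stab1-KO plasma (adjusted p = 0.00528). With ApoE-Stab2-KO plasma its difference was -0.19 ± 0.04 (adjusted p = 0.112). Egfl7, a secreted endothelial protein that binds Notch and its ligands, fell by 0.27 ± 0.04 and 0.21 ± 0.04 with the first 2 plasmas (adjusted p = 0.00136 and 0.0122), and its difference was -0.14 with the last (adjusted p = 0.222). Of 8 receptor cleavage genes, Aph1b, a subunit of gamma-secretase, was called higher with ApoE-Stab1-KO plasma (0.24 ± 0.05, adjusted p = 0.0378) and lower in ApoE-Stab2-KO minus ApoE-Stab1-KO (-0.31 ± 0.05, adjusted p = 0.012). Aph1b has a near-identical copy, Aph1c, so the source of its signal is uncertain. None of the 9 genes of the nuclear complex was called; Rbpj differed by 0.20, 0.20 and 0.18 (adjusted p = 0.417, 0.334 and 0.554).

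Pdgfb, which tip cells release to draw in pericytes, fell in all 3 comparisons, by 0.28 ± 0.05, 0.33 ± 0.05 and 0.31 ± 0.05 (adjusted p = 0.00412, 0.000692 and 0.00222). Its Wildtype range was 8.38 to 8.60, and its ranges with knockout plasma were 8.12 to 8.31, 8.05 to 8.25 and 8.10 to 8.25, with no overlap. Vegfa, the growth factor known to raise Dll4 through its receptor, moved the other way from Dll4. It rose by 0.26 ± 0.05, 0.25 ± 0.05 and 0.35 ± 0.05 (adjusted p = 0.0251, 0.0264 and 0.00222), from a Wildtype range of 7.60 to 7.77 to ranges of 7.83 to 8.09, 7.86 to 8.13 and 7.96 to 8.15. Kdr, the receptor through which VEGF acts on these cells, differed by 0.03, 0.09 and 0.07 and was not called. Among the transcription factors upstream of Dll4, Ets1 was called for the mean of the 3 knockout plasmas (-0.15 ± 0.03, adjusted p = 0.0307), not in a single comparison. Sox18 differed by -0.34, -0.29 and -0.15 (adjusted p = 0.122, 0.189 and 0.696).

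Of 11 Notch target genes, Efnb2 and Myc were called lower with ApoE-Stab1-KO plasma, Myc by -0.28 ± 0.06 (adjusted p = 0.0452), and none with the other plasmas. Id1, a helix-loop-helix inhibitor also known as a target of BMP signalling, was called by the F-test (adjusted p = 0.0485) and by no comparison of 2 groups. It ranged from 9.69 to 9.83 with ApoE-Stab2-KO plasma, above all arrays of the other groups, whose highest levels were 9.56 with ApoE-KO, 9.59 with ApoE-Stab1-KO and 9.61 with Wildtype plasma. The share of all genes set apart in this way was not counted. Of 12 arterial genes, Dll4 and Efnb2 were the ones called for the mean of the 3 knockout plasmas. Gja5, the arterial gap junction protein connexin 40, differed by -0.45 ± 0.14, -0.28 ± 0.13 and -0.09 ± 0.13 and was not called. None of 5 venous genes was called in that comparison, and the medians of the arterial and the venous list were both -0.06.

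**Figure D3:**
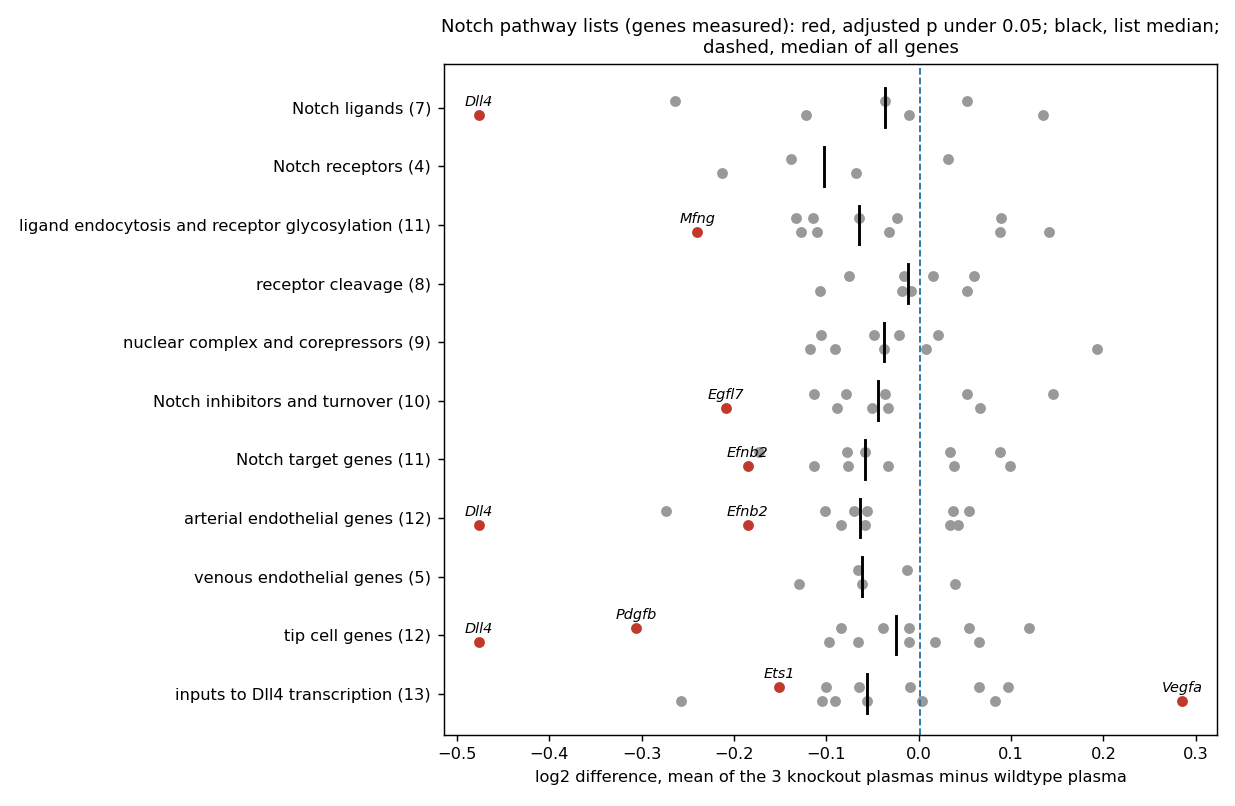
Difference of the mean of the 3 knockout plasmas from Wildtype plasma in log2 units (horizontal axis) for each gene of the 11 lists (vertical axis, with the number of genes measured); red points have an adjusted p under 0.05 over all genes, black bars are list medians and the dashed line is the median of all genes. Dll4 lies farthest to the left at -0.48, most genes of each list lie near the dashed line, and Vegfa is the one red point to its right.

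Whether members vary with Dll4 among arrays of the same plasma was asked after the group means had been removed, over 23 arrays. Efnb2 followed Dll4 with Pearson's r = 0.70 (permutation within groups, p = 0.00265, adjusted over the 9 pairs 0.0239) and Spearman's rho = 0.56 (permutation, adjusted p = 0.0634). Hes1 followed it with r = 0.65 (permutation, p = 0.00732, adjusted p = 0.0329) and rho = 0.67 (permutation, adjusted p = 0.0352). The other 7 members had r from -0.16 (Hey2) to 0.09 (Notch4), with adjusted permutation p of 0.905. As background, 0.130% of the genes above the median level had an r with Dll4 as high as that of Efnb2, and 0.364% one as high as that of Hes1. Without the 2 arrays farthest from the median in Dll4, ApoE-Stab1-KO replicates 3 and 5, r was 0.50 for Efnb2 (permutation, adjusted p = 0.234) and 0.63 for Hes1 (permutation, adjusted p = 0.0887), so that neither adjusted p passed; the r of Efnb2 moved with those arrays, while that of Hes1 stayed close to its value over all 23. Without ApoE-Stab1-KO replicate 1, r was 0.74 for Efnb2 (permutation, adjusted p = 0.0211) and 0.63 for Hes1 (permutation, adjusted p = 0.0345). Spearman's rho was then 0.60 and 0.59, and neither passed (permutation, adjusted p = 0.0668 for each).

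**Figure D4:**
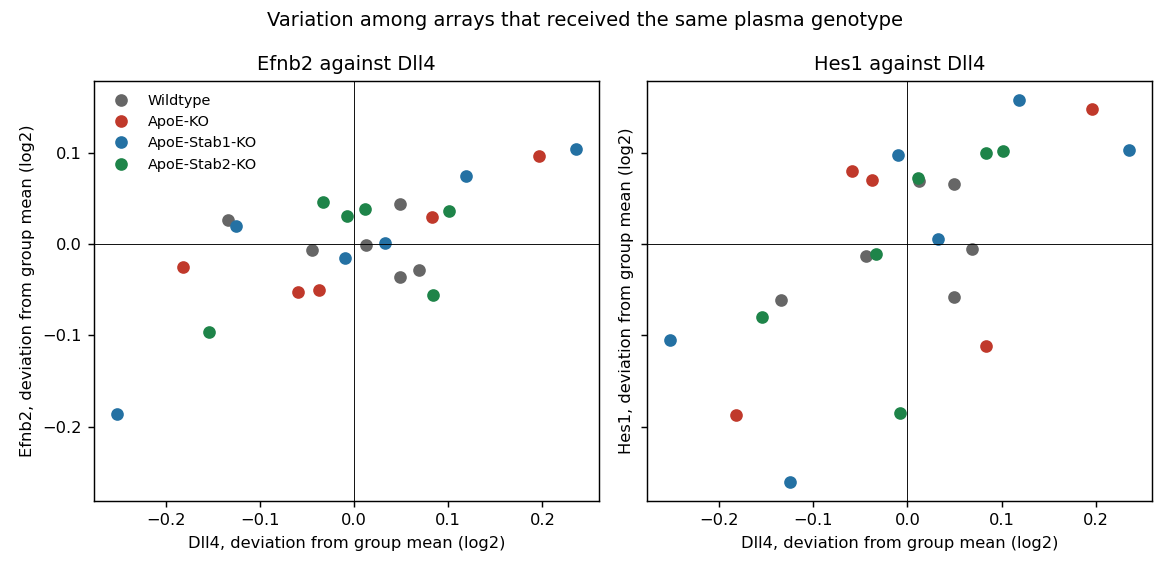
Deviation of Efnb2 (left) and Hes1 (right) from the group mean (vertical axes, log2) against the deviation of Dll4 (horizontal axes, log2); each point is 1 of the 23 arrays, coloured by plasma group. Both clouds rise from lower left to upper right (r = 0.70 and 0.65), and the lowest and highest Dll4 deviations, -0.25 and 0.24, belong to ApoE-Stab1-KO arrays.

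Among genes above the median level, predicted, Riken, small RNA and olfactory receptor names were left out, and 11037 were searched. Within these, the genes whose deviations were most like Dll4 over the 23 arrays were Fbln5 (r = 0.83), Jam2 (0.82), Rassf9 (0.81), Igfbp3 (0.81), Kitl (0.80) and Rapgef5 (0.75). Those most opposed were Mcm10 (-0.80), Msln (-0.80), Mlec (-0.78), Gadd45gip1 (-0.76), Ptprn (-0.75) and Nrg1 (-0.74). These r values describe the same 23 arrays and carry no p. Of these 12 genes, Igfbp3 was called lower for the mean of the 3 knockout plasmas (-0.29, adjusted p = 0.0217), as Dll4 was. Msln (0.25, adjusted p = 0.0235) and Nrg1 (0.28, adjusted p = 0.00704) were called higher. Of all genes, 0.291% were called lower and 0.486% higher. The rest of the 12 were not called in this comparison. Among those like Dll4, Fbln5 (-0.07), Jam2 (-0.08), Kitl (-0.06) and Rapgef5 (-0.12) had negative differences and Rassf9 (0.10) a positive one. Among those opposed, Mlec (0.22) had a positive difference and Gadd45gip1 (-0.16), Mcm10 (-0.03) and Ptprn (-0.01) negative ones.

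The genes next to Dll4 in the RefSeq order, Vps18 and Chac1, were not called. Vps18 differed from Wildtype by 0.07, 0.07 and -0.02 and Chac1 by 0.30, 0.11 and 0.20.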

How the data were processed

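The deposited log2 values of 25428 probe sets on 23 arrays were used as the authors made them, with RMA per the submitters' processing notes; the sources used here give neither its version nor the genome build of the array annotation. RMA corrects background, sets all arrays to 1 distribution and summarises the probes of a set, so a difference is measured against the rest of the array, and a change common to all genes is hidden. Values ran from 2.52 to 13.9, which shows the log2 scale, and the median of each array was 4.31. No 2 arrays were identical. The number of arrays limits the precision.

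Groups came from the sample labels. Of the probe sets 24705 had 1 gene symbol in the platform annotation, 0 several and 723 none; the brighter probe set of a repeated symbol was kept, which left 24704 genes. Groups were compared by limma 3.58.1 under R 4.3.3 (lmFit and eBayes, 1 mean per group over all arrays, 19 residual and 4.19 prior degrees of freedom), and adjusted by Benjamini-Hochberg over all genes in each of 7 comparisons and the F-test. Correlations used 100000 permutations within groups, two-sided. The fit was tested on simulated data. Promoter sequences came from RefSeq tables, searched on both strands in Python 3.11.15; figures were drawn with matplotlib 3.10.9.

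The members and lists were chosen with earlier results of these data known. The rule for named genes took all 10 members, every list gene called in any test, up to 3 genes per list with the smallest F-test p, and the 6 genes most like and the 6 most unlike Dll4; of these, genes outside the 10 are given where a result turns on them. Dll1, Kdr and the neighbours of Dll4 were chosen after their values were seen, as were marker genes named with a level. Alternatives are given in the closing section.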

Additional observations from a re-analysis of the deposited data

Results flagged for a closer look

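Of the 40 sets of arrays examined for the 10 genes (each gene in each plasma group), 2 held an array far from the rest of its group, where chance gives about 1 in 20. Notch4 on ApoE-Stab1-KO replicate 5 stood at 9.69, while the nearest array of the group was at 9.52 and the lowest at 9.49. Nrarp on ApoE-Stab1-KO replicate 4 stood at 9.43, with the nearest array at 9.29 and the lowest at 9.21. The causes were not tested.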

How the results depend on the processing

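Dll4 kept its direction and its call against Wildtype plasma under all 8 alternatives for each knockout plasma (array weights, a replicate block, a fit to the 2 groups alone, brighter genes alone, trended and robust eBayes, repeated quantile normalization, median centring, and all probe sets kept). The adjusted p ranged from 0.000728 to 0.0115 with ApoE-KO, from 6.47e-05 to 0.0222 with ApoE-Stab1-KO and from 0.00287 to 0.0133 with ApoE-Stab2-KO plasma. With each array left out in turn, the Dll4 difference ran from -0.51 to -0.42, from -0.61 to -0.51 and from -0.43 to -0.37, and the call was lost once (ApoE-Stab2-KO replicate 3). The number of members called then stayed at 1 with ApoE-KO plasma and ran from 1 to 2 with ApoE-Stab1-KO plasma, 0 to 1 with ApoE-Stab2-KO plasma, 2 to 3 for the mean of the 3 and 1 to 2 in the F-test (2 without ApoE-Stab1-KO replicate 3 or 5). The Efnb2 difference of ApoE-Stab2-KO minus ApoE-Stab1-KO, 0.013, ran from -0.024 (without ApoE-Stab1-KO replicate 3) to 0.034 (without replicate 5).

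Among genes above the median level only, 4 members were called for the mean of the 3 (Dll4, Efnb2, Jag2 and Notch1) in place of 2, with fewer genes tested. The F-test called 2 in place of 1 (Efnb2 added) there, with trend and robust settings and with array weights. With ApoE-KO plasma 2 were called in place of 1 with trend and robust settings (Notch1 added), and with ApoE-Stab2-KO plasma 2 in place of 1 with array weights (Efnb2, -0.19, adjusted p = 0.041). With ApoE-Stab1-KO plasma 1 was called in place of 2 with array weights (Efnb2 adjusted p = 0.0578), and with only the 2 groups compared (0.198), which uses fewer arrays. Otherwise the cause was not tested.

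Correlations cannot settle whether replicate numbers pair samples. Deviations of same-numbered arrays correlated at -0.10 to 0.11, and 6 of 23 arrays best with their own number. With the replicate block, 1 member was called with ApoE-Stab1-KO plasma in place of 2 (Efnb2 -0.21, adjusted p = 0.0512), and the F-test called 88 genes in place of 135. Over all genes, calls for ApoE-KO minus Wildtype were 131, and 212 with array weights or 80 with only the groups compared. For ApoE-Stab1-KO minus Wildtype they were 90, and 151 above the median level or 21 with only the groups compared. Between knockout plasmas they ranged from 0 to 2, from 0 to 18 and from 4 to 21 over the alternatives, in place of 1, 6 and 12. With 1 array left out, calls ran from 55 (without ApoE-KO replicate 2) to 109 for ApoE-KO minus Wildtype, from 54 (without Wildtype replicate 1) to 124 for ApoE-Stab1-KO, from 20 (without ApoE-Stab2-KO replicate 3) to 41 for ApoE-Stab2-KO (44 with all arrays), from 102 (without Wildtype replicate 1 or 5) to 234 for the mean of the 3 (192) and from 87 (without Wildtype replicate 4) to 197 in the F-test. The shares of all genes called move with these counts.

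Of the correlations with Dll4, Hes1 with knockout plasma arrays alone (17 arrays, an alternative chosen after seeing the data, as was leaving out ApoE-Stab1-KO replicate 1) had r = 0.66 (permutation, adjusted p = 0.0511). Efnb2 had r = 0.79 over those 17 arrays (permutation, adjusted p = 0.00936). Without the 2 farthest arrays r was 0.50 for Efnb2 and 0.63 for Hes1. Of the 7 weak ones, Jag1, Jag2, Hey1 and Hey2 kept their sign and 3 changed it. Notch1 went from -0.03 to 0.012 without ApoE-Stab1-KO replicate 1, to 0.19 with knockout plasma arrays alone and to -0.37 without the 2 farthest arrays. Nrarp went from -0.15 to 0.013 with knockout plasma arrays alone, and Notch4 from 0.09 to -0.17 without the 2 farthest arrays.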
